A study of Drosophila melanogaster with 3 samples.

Results

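The 92 fly genes named for cytosolic ribosomal proteins were examined for binding of pad, a zinc finger factor that represses proneural genes. The method was chromatin immunoprecipitation followed by sequencing (ChIP-seq). The 92 are the protein-coding genes of Ensembl release 115 whose symbol begins with RpL or RpS, out of 13945 coding genes on the major chromosome arms. This rule takes in RpL24-like, RpL7-like and RpLP0-like, which resemble yeast ribosome assembly factors, and leaves out the small-subunit genes sta and Rack1. Of the 92 genes, 54 are named for the large subunit and 38 for the small subunit. The rule uses symbols and no measured value, but it was chosen with earlier results of these data known. The samples were whole adult females of 1 Drosophila melanogaster transgenic line, of unknown age, that expresses pad with GFP fused to its C terminus. An anti-GFP antibody was used to precipitate the fusion in 3 biological replicates, which form 1 group, so that no treatment or genotype was compared. Whether the fusion replaces the endogenous protein is not given in the labels, and whole flies mix all tissues, so that binding in few cells and weak binding in many cells cannot be told apart. Because there was 1 group, the gene counts below carry no test and stand beside the share of all coding genes.

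Cytosolic ribosomes are built from ribosomal RNA and a large set of ribosomal proteins, most of them needed in equal numbers in every cell. In Drosophila, loss of 1 copy of many of these genes gives the Minute phenotype, with slow development and thin bristles. Their promoters are known for the TCT element, a pyrimidine-rich start site used in place of the usual initiator, and many also carry the DNA replication-related element (DRE), the site of the factor Dref.

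Summits were taken from 5 peak lists deposited on the dm6 build, and summit positions are the authors' own. The IDR list holds the 6659 peaks that passed the irreproducible discovery rate (IDR), a comparison of peak ranks between replicates. It is the top of a pooled list of 30000 peaks and background regions. Each replicate has its own such list of 30000. A summit in the pooled or a replicate list alone is not a call of binding. Genes with an IDR summit at most 250 bp from any of their annotated starts are called bound here, and the strongest such summit stands for the gene. The signal of a peak is the authors' measure of peak strength, of unstated scale, so peaks were ranked by it within each list, with rank 1 the strongest. Read depth is unknown.

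The promoters with the strongest summits serve as examples of sequence at bound genes. For 6 of the 7 highest-ranked genes, the 80 bases before and the first 20 bases from the outermost annotated start are printed below in the direction of transcription, read from the Release 6 genome (dm6). That of RpL7 is left out, because an exon of its neighbour Ripalpha reaches into the stretch. Capitals mark CTTT at the TCT position, the DRE letters TATCGATA, and the letters GTTTCCG, which return in the account of motifs. Whether these letters have a part in binding was not tested.
RpS9 (chr3L:9511512-9511611, minus strand): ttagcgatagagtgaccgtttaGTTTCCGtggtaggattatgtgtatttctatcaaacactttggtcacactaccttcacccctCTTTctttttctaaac
RpS27 (chr3R:25247495-25247594, minus strand): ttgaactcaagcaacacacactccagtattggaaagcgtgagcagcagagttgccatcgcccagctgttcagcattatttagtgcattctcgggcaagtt
RpL27 (chr3R:25685032-25685131, minus strand): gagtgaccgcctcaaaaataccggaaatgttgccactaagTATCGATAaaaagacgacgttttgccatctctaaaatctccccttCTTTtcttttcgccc
RpL14 (chr3L:8600926-8601025, plus strand): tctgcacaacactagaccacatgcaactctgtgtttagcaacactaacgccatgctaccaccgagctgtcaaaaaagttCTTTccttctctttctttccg
RpL34b (chr3R:9401207-9401306, minus strand): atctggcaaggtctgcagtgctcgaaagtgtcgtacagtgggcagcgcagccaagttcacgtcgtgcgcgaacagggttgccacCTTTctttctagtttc
RpL23A (chr3L:1668635-1668734, minus strand): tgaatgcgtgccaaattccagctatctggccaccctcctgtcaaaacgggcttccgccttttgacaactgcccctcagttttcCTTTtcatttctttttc
RpS9, RpL27, RpL14, RpL34b and RpL23A each hold CTTT within 5 bases of the start shown, and the summit of each lay 45 to 84 bp upstream of it. RpS27 has its CTTT at a second annotated start, inside the gene.

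Summits at ribosomal protein promoters were found in every list. In the IDR list 73 of the 92 genes (79.3%) were bound, beside 24.4% of all coding genes. At 1 kb from a start site the IDR list reached 75 of the 92, beside 33.5% of all coding genes. The pooled list held a promoter summit at 86 of them within 250 bp and at 89 within 1 kb, beside 50.7% and 64.7% of all coding genes. Replicate by replicate, a summit within 250 bp was found at 82, 86 and 86 of the 92 genes in replicates 1, 2 and 3, beside 45.4%, 50.5% and 47.1% of all coding genes. Within 1 kb the same 3 lists held 88, 88 and 89 of them, beside 62.8%, 63.0% and 63.3% of all coding genes.

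**Figure D1:**
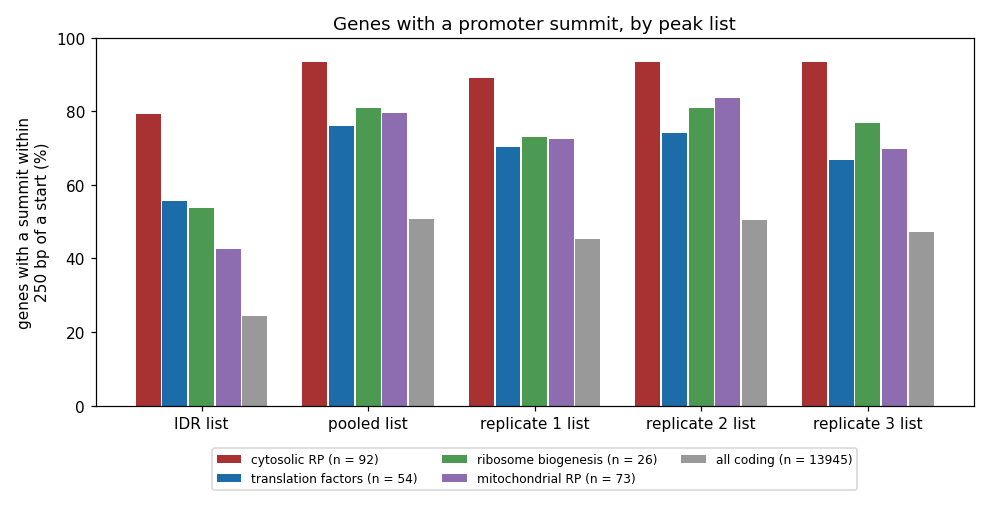
Share of genes (%) with a summit at most 250 bp from a start in each of the 5 peak lists (bars, 1 value per gene set and list). Cytosolic ribosomal protein (RP) genes lie above the 4 other sets in all 5 lists, at 79.3% in the IDR list beside 24.4% of all coding genes.

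The strongest peaks of each replicate separated the genes further. A summit among the top 5000 peaks of every replicate was present at 65 of the 92 genes, beside 13.8% of all coding genes. Taken alone, the top 5000 peaks of replicates 1, 2 and 3 marked 67, 69 and 75 of the 92 (mean 70.3 ± 4.16, SD, n = 3), beside 19.8%, 18.2% and 18.4% of all coding genes. A promoter summit in all 3 replicate lists was present at 82 of the 92, beside 35.7% of all coding genes, and 6 of the 92 had one in none of the 5 lists, beside 40.0% of all coding genes. All but 1 of the 73 bound genes had a promoter summit in each of the 5 lists, the exception being RpL27A, which lacked one in replicate 1. The IDR list is the top of the pooled list and was made from the replicates, so this count largely follows from being bound.

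Ranks at ribosomal protein promoters were high but seldom extreme. The median rank of these promoter summits over the replicates was 2043 ± 345, beside 6669 ± 518 for other coding genes (mean and SD of 3 replicate medians). By replicate it was 2052, 2384 and 1694 for the ribosomal protein genes, beside 6081, 7059 and 6868 for the other coding genes, so the medians of the 2 sets did not overlap. In the IDR list the 73 bound genes had a median rank of 1784, beside 3086 for the 3334 other bound coding genes. Their signals ran from 301 to 3000 with a median of 858, a 9.95-fold range, in a list whose signals ran from 264 to 97719. Thus 15 of the 73 (20.5%) were among the strongest 1000 peaks, beside 14.6% of other bound coding genes, and the best rank was 347. Over the 82 genes with a summit in all 3 replicates, Spearman's rho between replicate ranks was 0.932 for replicates 1 and 2, 0.925 for 1 and 3, and 0.941 for 2 and 3. These describe order across genes of the same libraries.

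**Figure D2:**
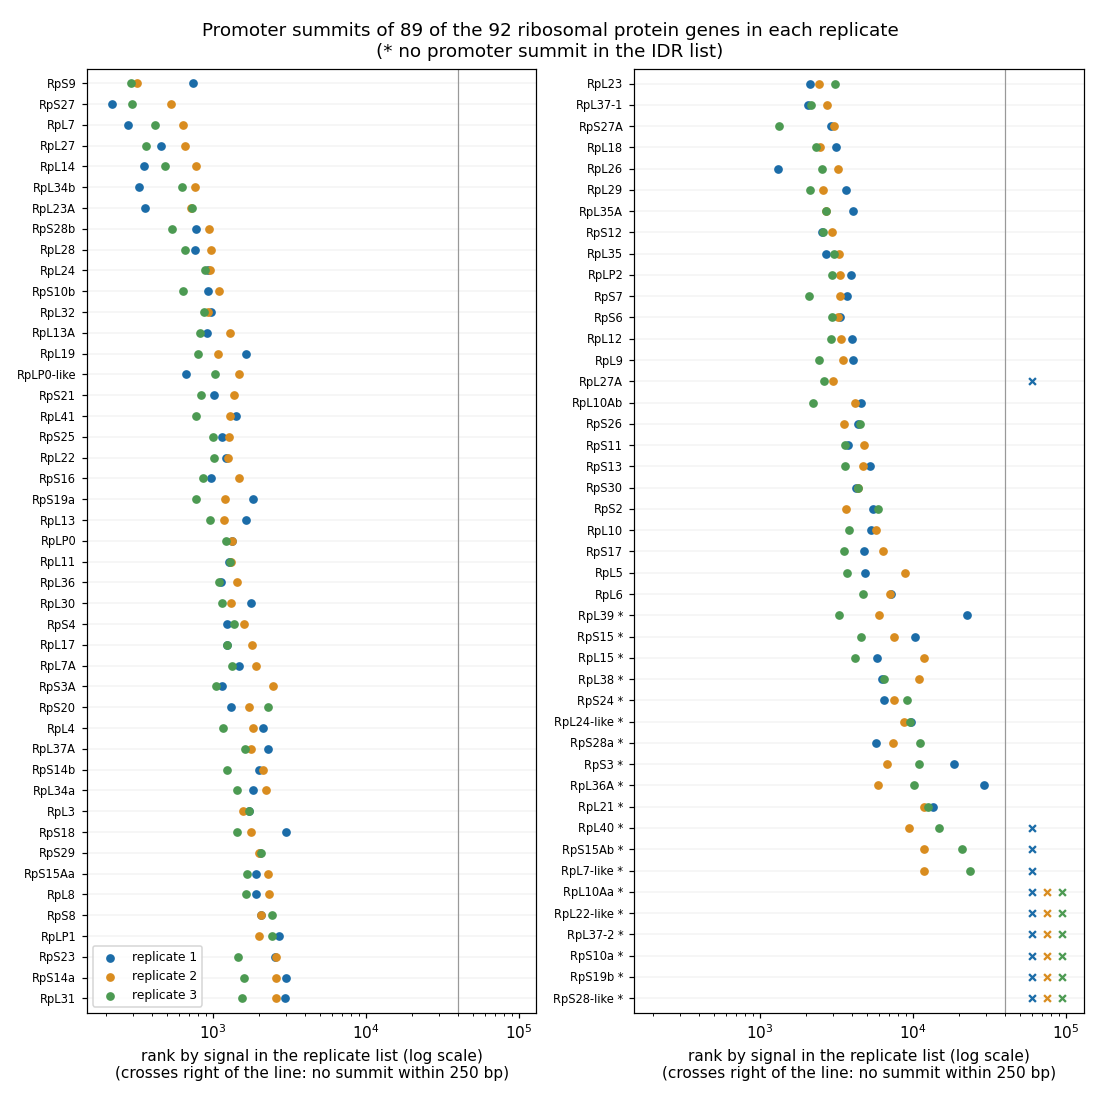
Rank by signal (log axis, strongest at left) of the strongest promoter summit of 89 of the 92 ribosomal protein genes in replicates 1, 2 and 3, with 1 point per replicate and crosses where no summit lay within 250 bp. Genes run down the page by pooled rank from RpS9, the highest of the ribosomal protein genes. The 6 genes at the bottom right have no promoter summit in any list.

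The 2 subunits had nearly equal shares. Of the 54 large-subunit genes 43 were bound (79.6%), and of the 38 small-subunit genes 30 (78.9%). The median IDR rank was 1667 for the bound large-subunit genes and 1937 for the bound small-subunit genes. Among the small-subunit genes, RpS9, whose protein lies by the mRNA entry channel, had the highest signal, 3000, in a peak at chr3L:9511194-9512093. It ranked 737, 317 and 291 in replicates 1, 2 and 3, so that replicate 1 placed it lower than the other two did. RpS27, a zinc finger protein of the small subunit, ranked 219, 533 and 298. Its summit lay 4 bp upstream of its start and is shared with Nup37, a nuclear pore gene on the other strand whose start also lies within 250 bp of it. RpS28b and RpS10b, proteins of the small subunit head, ranked 770, 941 and 540, and 935, 1094 and 633. These 4 are the small-subunit genes among the 12 of highest IDR signal, and all 4 ranked 1094 or better in every replicate.

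The other 8 of the first 12 belong to the large subunit, and 7 of them are described here. RpL7 ranked 277, 642 and 420, with its summit 29 bp downstream of a start, in an untranslated exon. RpL27 ranked 459, 657 and 367. RpL14 ranked 357, 779 and 483. In all 3 of these genes replicate 2 gave the lowest place, and each ranked 779 or better throughout. RpL34b, 1 of a pair of paralogs, ranked 330, 766 and 631. RpL23A, whose protein sits at the exit of the nascent peptide tunnel, ranked 358, 720 and 730. RpL28 ranked 759, 970 and 659. RpL24, whose protein helps to bridge the subunits, ranked 928, 957 and 890, the closest replicates of the 12 genes.

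Further bound genes, named after their values were seen or for their downstream summits, spread over a wide range of ranks. RpL3, next to the peptidyl transferase centre, ranked 1709, 1578 and 1718. RpL11, which with RpL5 holds one of the ribosomal RNAs of the large subunit, ranked 1270, 1307 and 1285. RpL5 ranked 4886, 8829 and 3692. RpL11 was thus ahead of its partner in all 3 replicates. RpS6, the substrate of S6 kinase, ranked 3343, 3251 and 2930. RpL10, placed late in the assembly of the large subunit, ranked 5329, 5681 and 3811. RpL6 had the lowest signal of the bound genes, 301, and ranked 7148, 7035 and 4698 in the replicates and 5790 among the 6659 IDR peaks.

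The 3 stalk genes, whose products form the arm of the large subunit that recruits translation factors, were all bound. RpLP0 ranked 1323, 1336 and 1213, RpLP1 ranked 2698, 2013 and 2428, and RpLP2 ranked 3946, 3317 and 2969, the same order in every replicate. RpLP2 was also the bound gene with its strongest IDR summit furthest upstream, at −230 bp, just inside the limit. Its strongest replicate summits lay at −39, −111 and −80 bp, and a second IDR summit lay 22 bp from the start, so the call did not rest on the distance limit.

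The 2 genes that make ubiquitin as a fusion with a ribosomal protein differed. RpS27A was bound with a signal of 681 and ranked 2901, 3050 and 1321, and its summit, 36 bp upstream, is shared with Ip259. RpL40 was not bound. It had no promoter summit in replicate 1, and in replicates 2 and 3 it ranked 9420 and 14839 with summits at 198 and −207 bp, on opposite sides of the start. The promoters of both hold CTTT within 5 bases of the start, shown here in capitals.
RpS27A (chr2L:10408272-10408371, plus strand): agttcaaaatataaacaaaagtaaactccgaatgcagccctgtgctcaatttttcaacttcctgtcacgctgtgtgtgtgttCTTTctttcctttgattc
RpL40 (chr2L:4227619-4227718, plus strand): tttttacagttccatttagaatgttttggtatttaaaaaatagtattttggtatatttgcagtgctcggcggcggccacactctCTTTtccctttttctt

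Paralogs made up 10 of the 19 genes that were not bound. Of 27 genes in 13 paralog groups 17 were bound, and of the 65 genes outside such groups 56 (86.2%). In 9 of the 13 groups exactly 1 gene was bound, and in the other 4 groups, RpS14, RpL34 and RpLP0 among them, every gene was. In the RpS19 group, RpS19a ranked 1818, 1208 and 777, whereas RpS19b had no promoter summit in any list and its nearest IDR summit lay 867 bp away. RpS10b, given above, contrasted in the same way with RpS10a, which had none within 250 bp in any list. RpL22, known in flies also for binding DNA, ranked 1218, 1263 and 1010, and RpL22-like had none within 250 bp in any list. RpL10Ab ranked 4573, 4168 and 2211, RpL37-1 ranked 2044, 2724 and 2142, and their paralogs RpL10Aa and RpL37-2 were without a promoter summit in every list. No pooled summit lay within 1 kb of RpL22-like, RpL10Aa or RpL37-2. RpS28-like, the last of the 6 genes without any, had its nearest IDR summit 581 bp away. RpS28-like, RpS19b and RpS10a had pooled summits within 1 kb.

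Several second copies had weak summits in place of none. RpS28a ranked 5714, 7376 and 11073, with summits on both sides of its start at −113, −162 and 222 bp, far behind RpS28b in each replicate. RpS15Aa ranked 1901, 2300 and 1669, and RpS15Ab was absent in replicate 1 and ranked 11828 and 20818 in the others. RpL24-like ranked 9633, 8778 and 9570, against 928, 957 and 890 for RpL24. RpL7-like was absent in replicate 1 and ranked 11863 and 23698 in replicates 2 and 3. The genes RpL24-like, RpL7-like and RpLP0-like resemble yeast factors that act in ribosome assembly. Of these, RpLP0-like was bound, with ranks of 668, 1478 and 1033, but its summit lay nearer to a start of 14-3-3zeta.

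Among the pairs with both copies bound, the order of the copies was the same in every replicate for RpL34 and RpS14, but not for RpLP0, which replicate 2 placed ahead of RpLP0-like. RpL34b, given above, was ahead of RpL34a, which ranked 1822, 2216 and 1442. RpS14b ranked 1989, 2122 and 1232, and RpS14a ranked 2994, 2585 and 1607, so their ranges overlapped. RpS14a and RpS14b are neighbouring near-identical copies on X, and the rule used for reads that fit both is not given in the sources used here, so the split of signal between them is uncertain. The promoters of the pairs RpS19a and RpS19b, RpS10b and RpS10a, and RpL10Ab and RpL10Aa are given here in the same form, to set a bound copy beside an unbound one.
RpS19a (chrX:16637814-16637913, plus strand): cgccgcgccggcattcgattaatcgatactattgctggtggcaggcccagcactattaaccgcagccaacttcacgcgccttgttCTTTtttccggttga
RpS19b (chr3R:23933511-23933610, minus strand): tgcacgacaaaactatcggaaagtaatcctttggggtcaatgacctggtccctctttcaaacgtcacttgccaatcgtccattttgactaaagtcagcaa
RpS10b (chrX:19597951-19598050, plus strand): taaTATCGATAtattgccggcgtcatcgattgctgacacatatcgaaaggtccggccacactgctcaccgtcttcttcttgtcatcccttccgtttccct
RpS10a (chr3R:27652680-27652779, plus strand): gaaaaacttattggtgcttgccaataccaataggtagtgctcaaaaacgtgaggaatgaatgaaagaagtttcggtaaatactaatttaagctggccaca
RpL10Ab (chr3L:11822771-11822870, plus strand): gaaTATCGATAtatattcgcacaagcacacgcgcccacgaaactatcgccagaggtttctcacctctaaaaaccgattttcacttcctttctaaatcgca
RpL10Aa (chr3R:15037286-15037385, plus strand): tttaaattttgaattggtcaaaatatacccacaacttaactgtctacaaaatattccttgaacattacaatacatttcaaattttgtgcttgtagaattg
RpS19a holds CTTT in capitals near the start, and RpS10b and RpL10Ab hold a DRE 77 bp upstream. The stretches shown for RpS19b, RpS10a and RpL10Aa hold no CTTT within 5 bases of the start and no DRE, which says nothing of sequence outside them. This contrast, a TCT element or DRE in the bound copy alone, was absent from the other groups with unbound copies. By the motif search described below, unbound RpL7-like held both, and unbound RpL24-like and RpS15Ab held a DRE. Unbound RpL37-2 held a TCT element, and bound RpL37-1 held a DRE. Neither was found in RpL22 or RpS28b, which were bound, or in RpL22-like, RpS28a or RpS28-like, which were not.

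**Figure D3:**
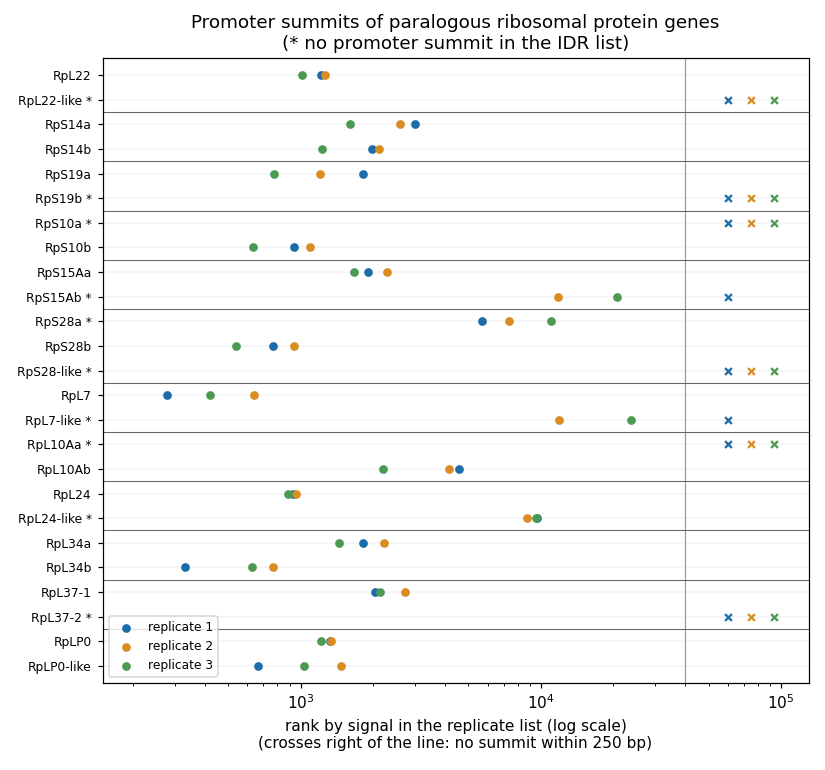
Rank by signal (log axis, strongest at left) of the strongest promoter summit of the 25 genes in 12 of the 13 paralog groups, with 1 point per replicate and crosses where no summit lay within 250 bp. In 9 groups 1 gene was bound and its paralogs, marked with an asterisk, had ranks beyond 5000 or no summit.

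The other 9 unbound genes stood outside the paralog groups, and all 9 had a promoter summit in the pooled list. The highest of these was RpL39, a very small protein of the exit tunnel, whose pooled signal of 260 was just below the lowest IDR signal of 264. RpL39 ranked 22586, 6031 and 3296, so that replicate 1 placed it far below the others. RpL36A showed the same split at 29021, 5886 and 10191, as did RpS3, an mRNA entry channel protein, at 18649, 6738 and 11005. RpS15 ranked 10256, 7448 and 4576, and RpS24 ranked 6435, 7521 and 9067. With RpL24-like and RpS28a, 10 of the 19 unbound genes had a promoter summit in every replicate. Over all coding genes, bound ones included, 50.7% had a promoter summit in the pooled list and 35.7% in every replicate list. The shares among unbound coding genes alone are not given here.

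Of the unbound genes, 3 lie toward the inner ends of their arms, far from any IDR summit. RpL15, known to lie in the pericentric heterochromatin of 3L, ranked 5776, 11745 and 4154, and the nearest IDR summit to its start lay 2037187 bp away. RpL38, near the base of 2R, ranked 6220, 10953 and 6461, with the nearest IDR summit at 227869 bp. RpL21, near the base of 2L, ranked 13503, 11795 and 12599, with the nearest at 79174 bp. RpL5, also near the base of 2L, was bound, with its summit 13 bp upstream of a start. By arm, 14 of 14 genes on X and the single gene on chromosome 4, RpS3A, were bound, with 13 of 14 on 3L, 17 of 23 on 3R, 14 of 19 on 2L and 14 of 21 on 2R. Over all coding genes the bound share was 26.7% on X, 15% on 4 and 23.3% to 25.3% on the other arms.

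Summits at ribosomal protein genes lay close to the start site. Their median offset was −42 bp (quartiles −63 and −10, negative being upstream), beside −86 bp (quartiles −151 and −27) for other bound coding genes. Of the 73 summits 67 (91.8%) were within 100 bp of a start, beside 49.9% of those of other bound genes. By position, 61 were upstream of the start, 1 was at it, at RpL35A, and 11 were downstream, none by more than 45 bp. In the replicate lists the median offset was −46.5, −24.5 and −38.5 bp (mean −36.5 ± 11.1), beside a mean of −66.7 ± 5.03 bp for other coding genes (SD, n = 3). RpLP2 at −230 bp and RpL10Ab at −158 bp were among the 3 furthest upstream. The furthest downstream were RpL10 at 45 bp, RpL6 at 39 bp, and RpL7 and RpL7A at 29 bp. RpL10Ab was the least settled of these, with replicate summits at −58, −27 and −121 bp. By annotation, 52 of the 73 summits were upstream of the gene, 20 were in an untranslated exon and 1, at RpL35, was in an intron.

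**Figure D4:**
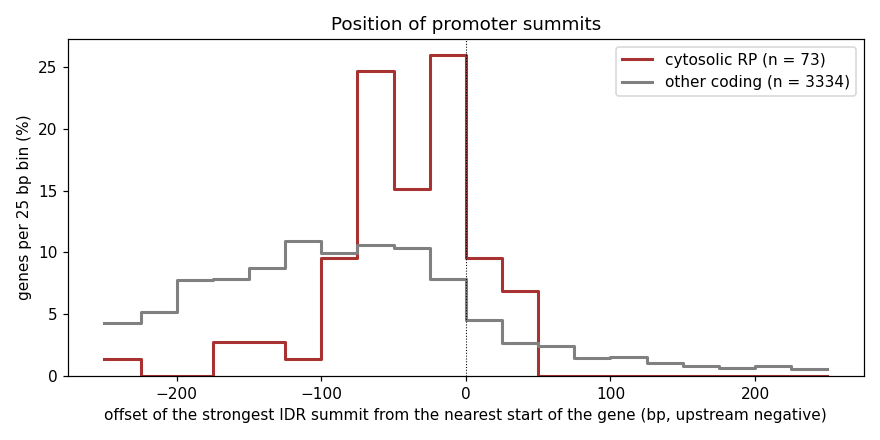
Distance (bp, upstream negative) from the nearest start site to the strongest IDR summit within 250 bp, as the share (%) of genes per 25 bp bin, for 73 bound ribosomal protein genes (red) and 3334 other bound coding genes (grey). The red line is concentrated within 100 bp of the start, where 91.8% of its summits lie, and the grey line is broad.

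Neighbouring genes were looked at because a shared promoter cannot show which gene a summit belongs to. Of the 73 bound genes 17 (23.3%) had a summit that also lay within 250 bp of a start of another coding gene, beside 42.7% of other bound genes. The ribosomal protein gene's own start was the nearest in 13 of the 17, and the 4 exceptions included RpLP0-like with 14-3-3zeta, RpL13 with Dref, and RpL29 with Sgf29. A coding gene started within 1 kb upstream on the other strand for 55 of the 92 (59.8%), beside 36.2% of all coding genes. Of these 55 divergent genes 46 (83.6%) were bound, beside 40.7% of other divergent coding genes. Of the 37 that were not divergent 27 (73.0%) were bound, beside 14.7% of other such genes. The ribosomal protein genes had the higher share in both classes.

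Some bound genes had more than 1 summit or uneven replicates. Within 1 kb, 18 of the 92 genes had at least 2 IDR summits, beside 9.99% of all coding genes. RpL34b and RpL26 had 4 each and RpL27A had 3, and the other 15 had 2 each. In the pooled list 72 (78.3%) had at least 2, beside 38.5% of all coding genes. The 5 bound genes whose replicate ranks differed most, by their SD on the log10 scale, included RpS9, RpS3A, RpS27A and RpL26. RpS3A ranked 1141, 2468 and 1045, and RpL26 ranked 1314, 3217 and 2520. Replicate 2 gave the lower place to RpS3A, RpS27A and RpL26, and replicate 1 to RpS9.

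Many of these genes carry small nucleolar RNAs (snoRNAs), guides of ribosomal RNA modification, inside the transcribed gene. Of the 92 genes 28 are hosts, beside 84 of all 13945 coding genes. The 28 host genes hold 74 annotated snoRNAs. Of the 28 hosts 26 were bound, all but RpL15 and RpL36A, where 79.3% of the 92 genes were. Among other coding hosts 27 of 56 (48.2%) were bound.

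Promoter sequence was compared in the window from 250 bases before to 50 after each annotated start. The TCT element was sought as CTTT on the sense strand with its C within 5 bases of a start, and 58 of the 92 genes (63.0%) held it, beside 8.07% of all coding genes and 9.81% of other bound coding genes. It was present in 49 of the 73 bound and 9 of the 19 unbound genes. Seen the other way, 84.5% of the 58 ribosomal protein genes with the element and 70.6% of the 34 without it were bound, beside 30.6% and 23.5% of other coding genes. Bound genes with it had a median IDR rank of 1632, and those without it 2355. The median offset of the summit was −32 bp with it and −54.5 bp without it. The C lay downstream of the annotated start in 46 of the 58, so its count depends on where the annotation puts the start.

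The DRE (TATCGATA, which reads the same on both strands) was found in 28 of the 92 promoters (30.4%), beside 10.2% of all coding promoters and 16.7% of those of other bound genes. Its share was 30.1% in bound and 31.6% in unbound ribosomal protein genes. The median IDR rank of bound genes was 1937 with a DRE and 1742 without one. Within 50 bp of the summit a DRE was present at 17 of the 73 genes (23.3%), beside 4.71% of other bound genes. Either the TCT element or a DRE was present in 69 of the 92 promoters, and both in 17.

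Other letters were searched on both strands unless stated, and each match is a description of sequence. The core of Motif 1 (GGTCACAC) was in 15 of the 92 promoters, beside 8.71% of all coding promoters, the E-box CACGTG in 15 (16.3%), beside 5.30%, and Motif 7 (CANCNCTA) in 30 (32.6%), beside 18.4%. For Motif 7 the share was 34.2% in bound ribosomal protein genes, beside 32.3% in other bound genes. For Motif 1 it was 17.8%, beside 14.1%, and for CACGTG 17.8%, beside 7.11%. The core of the insulator protein BEAF-32 (CGATA, which is part of every DRE match) was in 67 (72.8%), beside 53.0%. Its share was 76.7% in bound ribosomal protein genes, beside 66.9% in other bound genes. Fewer promoters than in the whole genome held the GAGA site (GAGAG), with 19 of the 92 (20.7%), beside 36.3%, and the E-box CAGCTG, with 11 (12%), beside 22.3%. Within 50 bp of the summit GAGAG was found at 2 of the 73 bound genes (2.74%), beside 13.0% of other bound genes, but CAGCTG at 5 (6.85%), beside 6.57%. The TATA box (TATAAA, sense strand) was in 32 (34.8%), beside 37.0% of all coding promoters. The word CAACACTG, whose first 7 letters also fit Motif 7, was in 6 of the 92 (6.52%), beside 4.37% of all coding promoters. In bound genes alone its share was 5.48%, beside 12.1% of other bound genes, and within 50 bp of the summit 6.85%, beside 5.49%. AGGGGAAA was in 1 of the 92, beside 1.05% of all coding promoters.

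**Figure D5:**
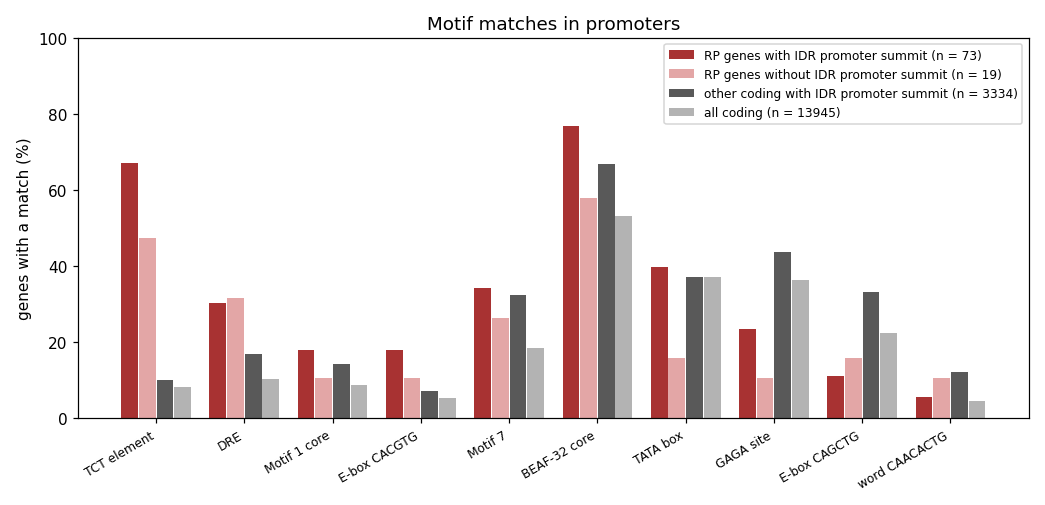
Share of genes (%) whose promoter, from 250 bases before to 50 after a start, holds each motif, for bound and unbound ribosomal protein (RP) genes, other bound coding genes and all coding genes. The TCT element is the motif with the widest gap, at 67.1% of bound ribosomal protein genes beside 9.81% of other bound genes, and GAGA sites are fewer, at 23.3% beside 43.5%.

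Words of 8 letters were also ranked by how much more often they occur in these promoters, so their shares are chosen values. The first was GTTTCCGG (CCGGAAAC on the other strand), present in 17 of the 92 (18.5%), beside 0.774% of all coding promoters. In all 17 it read GTTTCCGG on the sense strand. All 17 genes were bound, where 79.3% of the 92 were. Of the 18 genes with the next word, CGTTTCCG, 17 were bound, but this word shares GTTTCCG with the first and is no separate observation. Of those with TTCCGGTG and TTTCCGGT, which follow and also overlap the first, 9 of 10 and 14 of 16 were bound. The bound share of other coding genes with these words is not given here, and a link to binding was not tested. The 7-letter part GTTTCCG, on either strand, was in 22 of the 92, beside 3.78%. It lay at a median of 18 bases downstream of the start (quartiles −9.75 and 20). The pyrimidine word CTTTCTTT was in 30 (32.6%), beside 3.50%, each on the sense strand.

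Other lists of protein synthesis had bound shares between those of cytosolic ribosomal protein genes and of all coding genes. Against 79.3% of the cytosolic ribosomal protein genes, translation factors, taken as symbols that begin with eIF, eEF or eRF, had 30 of 54 genes bound (55.6%), a ribosome biogenesis list 14 of 26 (53.8%) and mitochondrial ribosomal proteins 31 of 73 (42.5%), beside 24.4% of all coding genes. The median offset was −42 bp at cytosolic ribosomal protein genes, and −47.5, −95 and −120 bp in these 3 lists. Of the bound genes, 20.5% of the cytosolic ribosomal protein genes were among the strongest 1000 IDR peaks. In these 3 lists the share was 26.7%, 14.3% and 19.4%. A TCT element was held by 58 of the 92 cytosolic ribosomal protein genes, and by 7, 2 and 4 genes of the 3 lists. RpS9, at rank 347, stood behind the strongest of these genes, eIF6 at rank 279 and mRpL41 at rank 223. The 2 small-subunit genes that the symbol rule leaves out were also bound, sta at rank 1587 and Rack1 at rank 1188, with summits at −52 and 26 bp.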

How the data were processed

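ChIP-seq of pad-GFP in whole adult females was analysed in 3 biological replicates of 1 group, from sonicated chromatin of 200 to 800 in size per the labels, which give no unit. The labels call the replicates biological and say no more of their source, so the spread between them may be partly technical. Per the deposited lists of derived files, the authors called 30000 peaks and background regions on each replicate and on pooled replicates against a control, and derived the IDR list from them. For the aligner and the peak caller, nothing is given in the sources used here. The signal of each peak was deposited by the authors without its scaling and was used to rank peaks within a list. The −log10 q-value deposited by the authors was read and not used. Read depth is unknown, so no interval was computed.

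Coordinates are 1-based on dm6 (Release 6), with start sites of all transcripts from Ensembl release 115. Lists on dm3 were not used here. Genes were named when they were among the 12 with the highest IDR signal, unbound, in a paralog group, in the stalk or ubiquitin fusion lists, among the 5 bound with the most variable rank, the 3 with the furthest summit on each side, or the 6 with most IDR summits. RpL3, RpL5, RpL11, RpS6, RpL13, RpL29, RpL35 and RpL35A were named after their values were seen. A few genes that the rule names are counted in every total and not reported by name here. The ribosome biogenesis list held 1 symbol that matched no gene, and eIF6 is in both it and the translation factors. Leave-one-out settings kept IDR peaks of which at least 50% of either peak was covered by a top 10000 peak of both other replicates. Alternatives covered distance, peak number, start sites, replicates and windows. The members and lists were chosen with earlier results of these data known. The assignment of summits to genes was tested on simulated data. Python 3.11.15, numpy 2.4.6, pandas 2.3.3 and matplotlib 3.10.9 were used.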

Additional observations from a re-analysis of the deposited data

How the results depend on the processing

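Of 51 alternative values 36 stayed within 1.5 times the reported count or within the spread between replicates, 15 moved and 0 reversed. Limiting the IDR list to its strongest 1000 peaks left 15 of the 92 genes bound within 250 bp (beside 3.61% of all coding genes) and 15 within 1 kb (beside 6.11%). The top 2000 peaks of every replicate marked 32 genes, beside 5.28%. With the outermost start alone 71 were bound, beside 21.2%. Leaving out each replicate gave 72 to 73 genes within 250 bp, 75 within 1 kb and 65 to 68 in the top 5000. The median rank was then 1872 to 2218 and the median offset −42.5 to −39 bp. The IDR list itself was made from all 3 replicates. The counts within 250 bp and 1 kb therefore cannot show what a list made without a replicate would hold. For the top 5000, requiring fewer replicates can only keep or raise the count. The median offset was −24.5 bp in the list of replicate 2 and −27.5 bp without the genes that share a summit, and the cause was not tested. With the C of the TCT element within 2 bases of a start 20 genes held it, beside 3.28%, and within 10 bases 76, beside 14.9%. Within 50 bp of the summit of the 73 bound genes, which is a shorter window over fewer genes, the number with a match was 17 for the DRE (23.3%, beside 4.71% of other bound genes), 8 for Motif 1 (11%, beside 3.06%), 5 for CACGTG (6.85%, beside 1.14%), 5 for CAGCTG (6.85%, beside 6.57%), 2 for GAGAG (2.74%, beside 13.0%), 12 for Motif 7 (16.4%, beside 9.24%), 4 for TATAAA (5.48%, beside 10.5%), 34 for CGATA (46.6%, beside 25.8%) and 0 for AGGGGAAA (beside 1.14%). An alternative added after seeing the data, the genes outside paralog groups, had 56 of 65 bound. No paired analysis was possible because the 3 replicates form 1 group. Without read counts, a gene absent from a list cannot be told from one below the detection of that library.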
